A study of Homo sapiens with 6 samples.

Results

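The genes described here are the histone H3 lysine 9 (H3K9) methyltransferase genes other than SETDB1, the adaptor gene WIZ, and the genes of the HP1 proteins that bind methylated H3K9. They are SETDB2, SUV39H1, SUV39H2, EHMT1, EHMT2, WIZ, CBX1, CBX3 and CBX5, taken by symbol from the annotation, and all 9 had a row in the deposited table of 18677 genes. The study compared 2 groups of 3 RNA-seq libraries each from the human cell line H1299, established from a non-small cell lung carcinoma: cells with a guide RNA against SETDB1 (hSETDB1 sg1), here called the SETDB1 knockout, and cells with a control guide (Control sg2). Both groups were grown with puromycin. Each group rests on 1 guide. The labels do not say whether the cells were a clone or a pool, or whether the replicates were separate cultures, so p-values measure only the spread between these libraries, which may be technical.

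H3K9 methylation marks silent chromatin. SUV39H1 and SUV39H2 are paralogs that place the trimethyl mark, chiefly in pericentric heterochromatin, and SETDB2 is a relative of SETDB1 with a role in chromosome condensation. EHMT1 (also called GLP) and EHMT2 (also called G9a) work as a heterodimer that places the mono- and dimethyl marks in euchromatin, and the zinc finger protein WIZ binds both and helps to hold the complex on chromatin. CBX1 (HP1 beta), CBX3 (HP1 gamma) and CBX5 (HP1 alpha) read the mark with a chromodomain and recruit partners through a chromoshadow domain.

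The 3 HP1 genes are close relatives, so a stretch of their reference coding sequence around a shared run is shown first, because likeness bears on whether reads can be told apart. The 60 coding bases of each gene around the longest run shared by CBX3 and CBX5 lie in the region that encodes the chromodomain, and capitals mark the 39 bases that are the same in all 3 genes (GENCODE 29 transcripts, 5′ to 3′, coding bases 124 to 183 of CBX1, 151 to 210 of CBX3 and 121 to 180 of CBX5).
CBX1: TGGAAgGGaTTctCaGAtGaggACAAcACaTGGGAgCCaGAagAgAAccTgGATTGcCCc
CBX3: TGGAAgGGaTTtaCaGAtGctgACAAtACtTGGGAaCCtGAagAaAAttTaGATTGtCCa
CBX5: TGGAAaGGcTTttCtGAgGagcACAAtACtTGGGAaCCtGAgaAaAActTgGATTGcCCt
The aligned coding bases were 71.2% identical between CBX1 and CBX3, 71.4% between CBX1 and CBX5 and 72.7% between CBX3 and CBX5. The longest identical run in any of these pairs was 19 bases. Identity was 64.6% between EHMT1 and EHMT2, with a longest run of 20 bases, and 61.6% between SUV39H1 and SUV39H2, with a longest run of 13 bases.

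Sequence shared with genes outside the group was more extensive. Of the distinct 50-base words in the annotated transcripts of a gene, the share that also occurred in a transcript of another gene, on either strand, ranged from 0.41% for WIZ to 17.5% for SUV39H1. All 590 shared words of SUV39H1 came from AC231533.1, an RNA gene on the opposite strand that was not among the genes tested. For CBX3 the share was 11% (519 words), and the gene with most matches was HNRNPA2B1, which overlaps its start on the opposite strand. EHMT2 shared 6.15% of its words (462) and EHMT1 3.67% (842). The genes with most matches were the antisense genes EHMT2-AS1 and AL772363.1. Matches were 410 for HNRNPA2B1, 330 for EHMT2-AS1 and 529 for AL772363.1. A word was counted again in each transcript that held it, so matches are not numbers of distinct words. The labels do not state if strand was kept, so reads in these overlaps cannot be assigned with certainty. The processed pseudogenes CBX3P2 and CBX3P9 had rows of their own, with 1.02% and 0.476% of the CBX3 count.

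Start regions are shown for EHMT2, which had the largest fold change of the 9 genes, and for EHMT1 and CBX5, whose starts face another gene at short distance. Each is the longest part outside annotated exons of the 250 bases before the RefSeq start (RefSeq, GRCh38.p14; all 9 genes matched), printed 5′ to 3′ on the gene's strand. Capitals mark matches to the motifs searched. For CBX3 the whole window lies in annotated exons, so none is printed.
EHMT2 (chr6:31897699-31897784, minus strand): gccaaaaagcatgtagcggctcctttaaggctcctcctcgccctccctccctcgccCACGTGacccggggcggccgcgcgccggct
EHMT1 (chr9:137618907-137618962, plus strand): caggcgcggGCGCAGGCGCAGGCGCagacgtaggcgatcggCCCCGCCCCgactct
CBX5 (chr12:54280134-54280192, minus strand): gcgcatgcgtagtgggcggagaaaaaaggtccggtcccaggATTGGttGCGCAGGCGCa
The motifs were searched on both strands in the 250-base windows, and none contains another. CACGTG (an E-box) was in the windows of EHMT2 and CBX5 (there outside the printed bases) and in 6.32% of 34943 RefSeq windows. The NRF1 motif (GCGCA, any base, then GCGC) was in those of EHMT1, SUV39H2 and CBX5 and in 5.04% of all windows, and the 2 matches printed for EHMT1 overlap each other. GGGGCGGGG (a GC box) was in those of EHMT1, SUV39H2 and WIZ (15.1% of all), CCAAT in those of CBX5 and SETDB2 (32% of all), and TGACGTCA in that of SUV39H2 (1.63% of all). None of the 9 windows held any of the E2F motifs TTTGGCGC, TTTGGCGG, TTTCGCGC or TTTCCCGC, which were in 2.82% of all. A match describes the letters only. Counts of the dinucleotide CG ran from 5 in the SUV39H1 window to 43 in that of EHMT1, against a median of 11 over all windows.

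Total counts per library ranged from 29532057 to 35941288, and levels are given as CPM, counts normalised to the TMM-scaled library total. SETDB1 itself stood at 36.1 to 40.6 CPM in the SETDB1 knockout and 41.6 to 45.01 CPM in the control, or -0.17 ± 0.06 on the log2 fold scale (SE; edgeR adjusted p = 0.0151). That call was lost without knockout replicate 2 (-0.13, edgeR adjusted p = 0.0896) and with library size alone (-0.13, edgeR adjusted p = 0.0605); an edited gene can keep its mRNA, so the level checks the labels only in part. KRT8, KRT18 and VIM, which mark carcinoma lines with mesenchymal features, were expressed at 158 to 2430 CPM on average in both groups. Of 9 markers of leukocytes, endothelium, fibroblasts and red cells, 7 had no row, and DCN and PDGFRB had at most 18 counts in any library.

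Of the 9 genes, 3 were higher in the SETDB1 knockout (EHMT2, CBX5 and WIZ), 3 were lower (CBX3, EHMT1 and SUV39H1), and 3 did not pass the test (SETDB2, SUV39H2 and CBX1) by edgeR's quasi-likelihood test at an adjusted p under 0.05. EHMT2 doubled, and the other 5 called genes changed by less than 1.5-fold. The share called, 66.7%, was close to the 63.5% of all 17675 genes tested that were called, of which 31.9% were higher and 31.6% lower, so the count alone does not set these genes apart. Knockout and control values were fully apart for 7 of the 9 genes, against 66.8% of all genes tested. The median log2 fold change was -0.09 over the 9 genes and 0.01 over all genes, and the median size of change was 0.22 and 0.33 on the log2 scale. The plot of levels by library shows EHMT2 as the gene whose groups lie farthest apart.

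**Figure D1:**
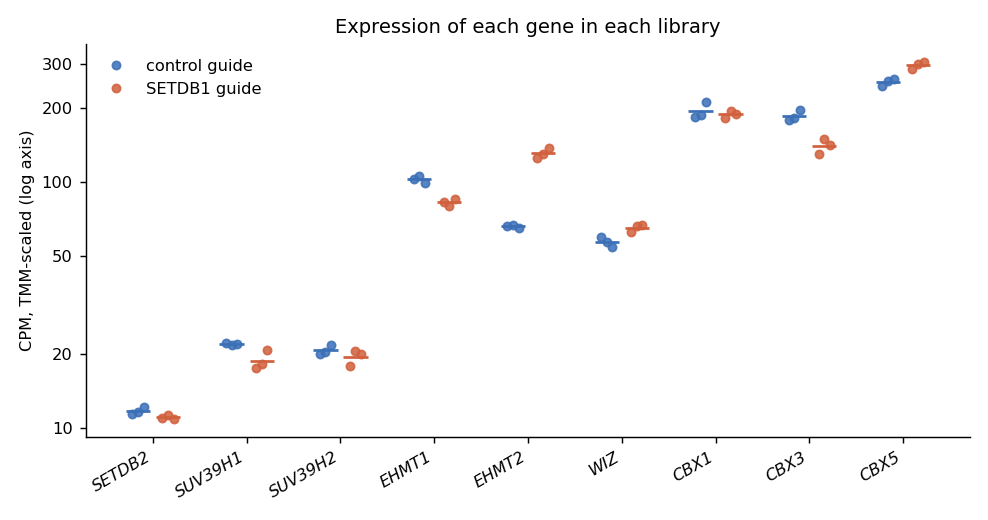
Level of each gene in each library, in TMM-scaled CPM on a log axis. Points are libraries, blue for the 3 control and orange for the 3 SETDB1-knockout libraries, and lines are group means. EHMT2 lies at 125 to 137 CPM in the knockout and 65.1 to 66.8 CPM in the control, whereas the libraries of SUV39H2 and CBX1 overlap.

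EHMT2 (ENSG00000204371; GRCh38 chromosome 6, 31879759 to 31897687, minus strand) encodes the methyltransferase G9a. Its knockout libraries had 125, 130.2 and 137 CPM, and its control libraries 66.3, 66.8 and 65.1 CPM. Every knockout library was far above every control library. The log2 fold change was 0.99 ± 0.05 (SE; 1.98-fold, edgeR adjusted p = 3.54e-12), larger in size than that of 86.7% of all genes tested, and it was the only member still called when the test asked for more than a 1.5-fold change, a bar that 17.3% of all genes passed.

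EHMT1 (ENSG00000181090; chromosome 9, 137618963 to 137870016, plus strand) encodes GLP, the obligate partner of G9a in the complex. Its levels were 82.9, 79.7 and 85.3 CPM in the knockout and 103, 106 and 99.5 CPM in the control. The groups did not overlap, and EHMT1 fell by 0.31 ± 0.05 on the log2 scale (SE; edgeR adjusted p = 2.53e-05). The 2 partner genes thus moved in opposite directions. WIZ (ENSG00000011451; chromosome 19, 15419980 to 15449951, minus strand) stood at 62.6, 66.2 and 66.7 CPM in the knockout and 59.7, 56.9 and 54.5 CPM in the control. Its groups were close but did not overlap, and it rose by 0.19 ± 0.05 on the log2 scale (SE; edgeR adjusted p = 0.00404).

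Counted per kilobase of merged exons, EHMT2 exceeded EHMT1 by 1.96, 1.93 and 1.99 times in the control libraries and by 4.6, 4.98 and 4.9 times in the knockout libraries. The ratio rose 2.46-fold and its groups were far apart. The ratio of WIZ to EHMT1 went from 1.22 to 1.31 in the control to 1.71 to 1.88 in the knockout. Both changes had p = 0.1 in an exact two-sided permutation test over the 6 libraries, the smallest p that 3 against 3 allows (0.14 after Benjamini-Hochberg adjustment over the 7 ratios computed). The size of a ratio depends on the length chosen: with the longest transcript of each gene, the EHMT2 to EHMT1 ratio was 1.2 to 1.24 in the control and 2.87 to 3.1 in the knockout, with the same change.

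SUV39H1 (ENSG00000101945; chromosome X, 48695554 to 48709012, plus strand), the first H3K9 methyltransferase gene described in mammals, stood at 17.5, 18.3 and 20.7 CPM in the knockout and at 22.2, 21.8 and 22.1 CPM in the control. The control libraries were close together, the knockout libraries more spread and all lower. It fell by 0.22 ± 0.07 on the log2 scale (SE; edgeR adjusted p = 0.00781), with the overlap with AC231533.1 described above. Its paralog SUV39H2 (ENSG00000152455; chromosome 10, 14878820 to 14904315, plus strand) stood at 17.8, 20.6 and 20.1 CPM in the knockout and 20.02, 20.4 and 21.8 CPM in the control. The groups overlapped, and the log2 fold change of -0.09 did not pass the test (edgeR adjusted p = 0.285; 95% interval -0.22 to 0.05). The ratio of SUV39H2 to SUV39H1 per length was 0.915 to 1.07 in the knockout and 0.852 to 0.93 in the control, with overlapping libraries (exact permutation p = 0.2, two-sided, adjusted 0.233). A different response of the paralogs is therefore not shown.

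SETDB2 (ENSG00000136169; chromosome 13, 49444374 to 49495003, plus strand) is the closest relative of the targeted gene in this set. It had 11, 11.3 and 10.9 CPM in the knockout and 11.4, 11.7 and 12.2 CPM in the control. All knockout libraries lay just below all control libraries, yet the log2 fold change of -0.09 did not pass the test (edgeR adjusted p = 0.301; 95% interval -0.23 to 0.05). That interval uses a normal quantile and the TMM scaling. With library size alone the log2 fold change of SETDB2 was -0.05, so a small rise of SETDB2 is not excluded. The ratio of SETDB2 to SETDB1 per length was 0.288 to 0.333 in the knockout and 0.269 to 0.312 in the control (exact permutation p = 0.4, two-sided, adjusted 0.4).

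Among the HP1 genes, CBX3 fell, CBX5 rose and CBX1 did not pass the test. CBX3 (ENSG00000122565; chromosome 7, 26201162 to 26213356, plus strand) stood at 129, 149 and 141 CPM in the knockout and 178, 182 and 195 CPM in the control. The groups did not overlap, and CBX3 fell by 0.40 ± 0.06 on the log2 scale (SE; edgeR adjusted p = 6.69e-06). CBX5 (ENSG00000094916; chromosome 12, 54230940 to 54280133, minus strand) stood at 287, 300.2 and 307 CPM in the knockout and 246, 256 and 262 CPM in the control. Each knockout library was above each control library, and CBX5 rose by 0.23 ± 0.05 on the log2 scale (SE; edgeR adjusted p = 9.26e-04). CBX1 (ENSG00000108468; chromosome 17, 48070052 to 48101521, minus strand) stood at 181, 194 and 189 CPM in the knockout and 184, 187 and 211 CPM in the control. These overlapped, and the difference was -0.04 on the log2 scale (edgeR adjusted p = 0.539; 95% interval -0.16 to 0.07).

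The make-up of the HP1 transcripts shifted accordingly. Per kilobase of merged exons, CBX3 gave 32.9% to 33.7% of the HP1 reads in the control libraries and 26.4% to 28% in the knockout libraries. CBX5 gave 13.6% to 14.6% in the control and 17.3% to 18.3% in the knockout, and CBX1 51.8% to 53.5% and 54.5% to 55.6%. The ranges of the groups were apart for each gene. The ratio of CBX3 to CBX5 was 2.31 to 2.42 in the control and 1.46 to 1.61 in the knockout, a drop to 0.646 of the control ratio. This change and those of CBX1 to CBX3 (1.29-fold higher) and CBX1 to CBX5 (0.831 of the control) each had p = 0.1 in the exact two-sided permutation test and 0.14 after adjustment. The HP1 total per length was 106 to 115 in the knockout and 114 to 128 in the control, in RPKM (CPM over the exon length in kilobases), and overlapped. With the longest transcript as the length it was 160.5 to 176.5 RPKM in the knockout and 180.6 to 201.7 RPKM in the control, without overlap. By that length CBX3 gave 45.5% to 46.3% of the control total and CBX1 41.7% to 43.2%. A change of the HP1 total thus depends on the length used.

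**Figure D2:**
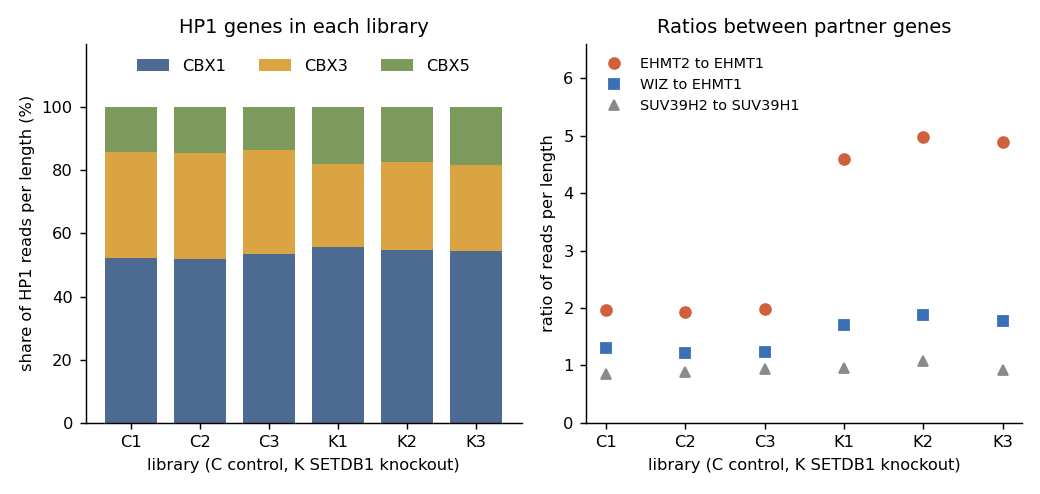
Left, share of each HP1 gene in the HP1 reads per kilobase of merged exons, as stacked bars for each library (C1 to C3 control, K1 to K3 SETDB1 knockout). Right, ratio of reads per kilobase between partner genes in the same libraries. The EHMT2 to EHMT1 ratio is 1.93 to 1.99 in the control and 4.6 to 4.98 in the knockout, while the SUV39H2 to SUV39H1 ratio overlaps between groups.

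Ordered by control level per kilobase of merged exons, CBX1 came first with 62.8 ± 4.91 RPKM (SD, n = 3), followed by CBX3 with 39.9 ± 1.97 and CBX5 with 16.9 ± 0.536. EHMT2 followed with 9.06 ± 0.12 RPKM, SUV39H1 with 6.54 ± 0.0562, SUV39H2 with 5.82 ± 0.253, WIZ with 5.8 ± 0.262, EHMT1 with 4.62 ± 0.136 and SETDB2 with 1.76 ± 0.0603. Each gene was above the next in every library except SUV39H2 and WIZ, which did not differ beyond their spread. In the knockout EHMT2 reached 17.9 ± 0.84 RPKM, close below CBX5 at 19.8 ± 0.702, WIZ at 6.63 ± 0.228 moved ahead of both SUV39H genes, and SUV39H1 and SUV39H2 overlapped at 5.59 ± 0.496 and 5.47 ± 0.416. With the longest transcript as the length, CBX3 and CBX1 overlapped at the top of the control order (87 ± 4.29 and 80 ± 6.25 RPKM), EHMT1 moved up to 13.1 ± 0.385 RPKM, and EHMT2 passed CBX5 in the knockout (31.7 ± 1.48 against 25.9 ± 0.916 RPKM). The order within a group therefore depends on the length used.

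Genes near each member were compared with it in the same fit. The stretches these genes cover differ in width, from 1.07 Mb around EHMT1 to 31.99 Mb around SETDB2, with 18.33 Mb around CBX3. Around CBX3, 37 of the 50 nearest expressed genes (log2 CPM above 3, 25 on each side) were lower and 3 higher, with a median log2 fold change of -0.39, equal to that of CBX3 within its error. With that median taken out, CBX3 had a log2 fold change of -0.01 and no call (edgeR adjusted p = 0.922). CBX5 and WIZ also lost their calls in this way: their neighbours had medians of 0.17 and 0.13, and what remained was 0.05 for CBX5 (edgeR adjusted p = 0.399) and 0.06 for WIZ (edgeR adjusted p = 0.364). With the same step applied to every gene, 56.7% of all genes were called.

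EHMT2, EHMT1 and SUV39H1 kept their calls with the neighbourhood median taken out. The median entered the fit as a fixed value, so the p-values of this step carry no error of the median. EHMT2 lies in the class III region of the MHC. Of its 50 neighbours 34 were higher and 5 lower, with a median of 0.29, and 0.69 remained (edgeR adjusted p = 9.91e-10). The neighbours span 2.39 Mb and reach beyond class III on both sides. The 5 lower ones, HLA-C, HLA-B, PSMB8, RXRB and RING1, named after their values were seen, lie outside class III. A median over class III alone was not computed. Of those 50 neighbours, 3 rose more than EHMT2: HSPA1A at 1.55, HSPA1B at 1.52 and ZBTB12 at 1.21 on the log2 scale; the heat shock genes HSPA1A and HSPA1B were picked after their values were seen and are near-identical, so reads of the pair can be shared. For EHMT1, near the end of chromosome 9, 26 neighbours had a median of -0.08 and -0.23 remained (edgeR adjusted p = 7.80e-04). TPRN, picked after its value was seen, was the 1 neighbour with a larger fall than EHMT1 (-0.67). For SUV39H1 the median was -0.04 and -0.19 remained (edgeR adjusted p = 0.0272). Its 50 neighbours were mixed, 13 higher and 18 lower, and 14 of them fell more than SUV39H1. What moves whole stretches of genes was not tested.

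**Figure D3:**
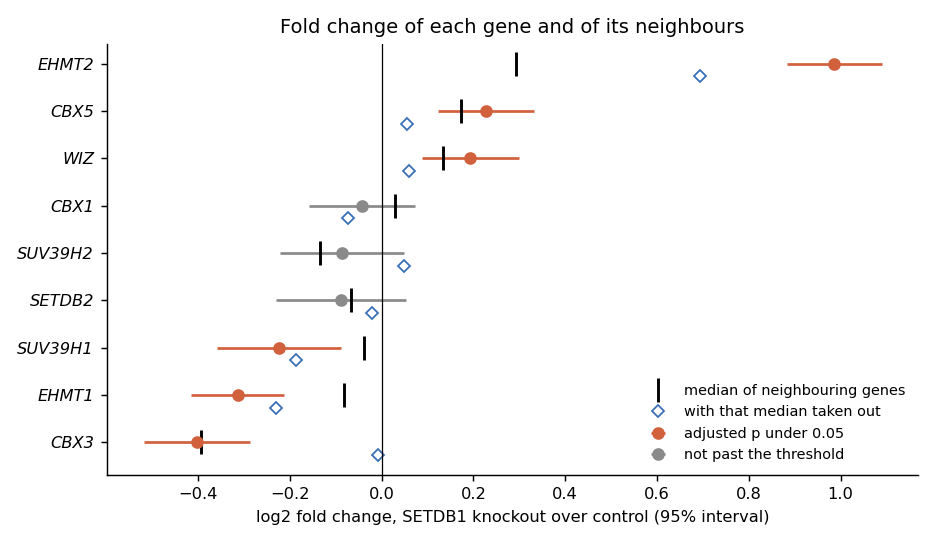
Log2 fold change of each gene, SETDB1 knockout over control, with its 95% interval; filled circles are orange where the edgeR adjusted p is under 0.05 and grey otherwise. Black ticks give the median of the neighbouring expressed genes, and open diamonds the fold change with that median taken out. CBX3 moves from -0.40 to -0.01, and EHMT2 from 0.99 to 0.69.

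**Figure D4:**
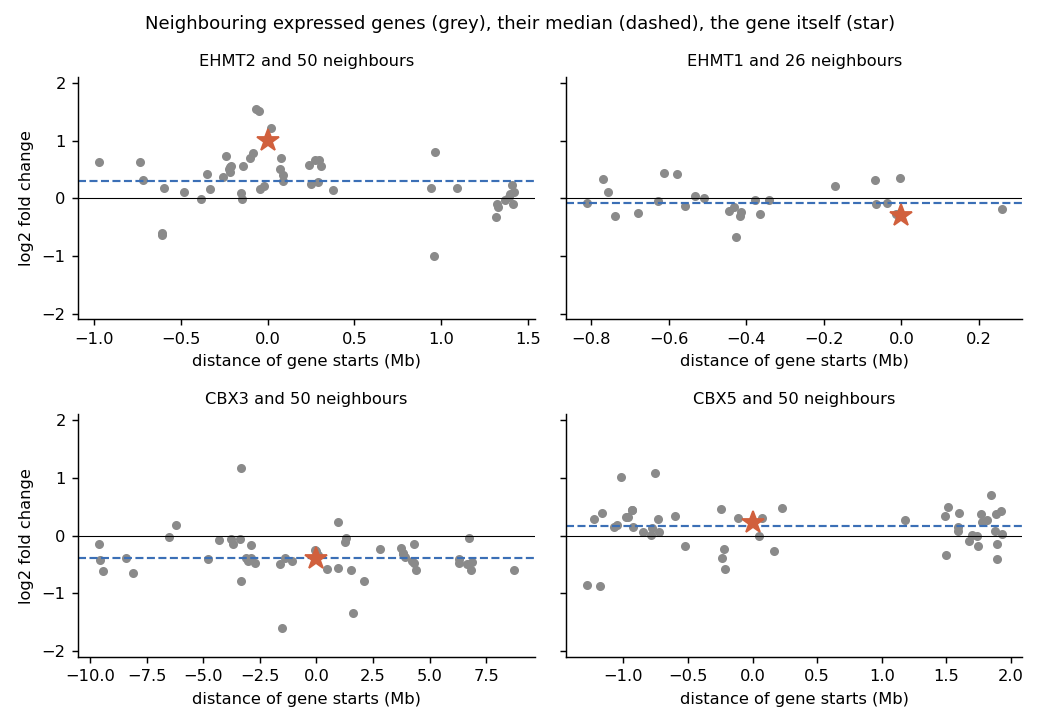
Log2 fold change of the expressed genes around EHMT2, EHMT1, CBX3 and CBX5, against the distance between gene starts in Mb. Grey points are neighbours, the dashed line is their median and the star is the named gene. The CBX3 star sits on its neighbours' median of -0.39, and the EHMT2 star at 0.99 lies above its median of 0.29.

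Several members start beside a gene read in the opposite direction, and these pairs did not all move together. The starts of CBX3 and HNRNPA2B1, which encodes an RNA-binding protein, lie 367 bases apart and overlap, and both genes were lower: HNRNPA2B1 stood at 1050, 1157 and 1101 CPM in the knockout and 1271, 1329 and 1390 CPM in the control (-0.27 ± 0.06, edgeR adjusted p = 4.55e-04). CBX5 starts 60 bases from HNRNPA1, a relative of HNRNPA2B1. HNRNPA1 stood at 1324, 1372 and 1351 CPM in the knockout and 1292, 1327 and 1424 CPM in the control, so that CBX5 rose while HNRNPA1 differed by 0.00 ± 0.06 on the log2 scale (edgeR adjusted p = 0.983). EHMT1 starts 57 bases from ARRDC1-AS1, a non-coding RNA gene, which rose from 18.1 ± 1.69 to 23.0 ± 1.03 CPM (0.35 ± 0.07, edgeR adjusted p = 2.99e-04) as EHMT1 fell.

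SETDB2 starts 248 bases from CAB39L, which encodes a scaffold of the LKB1 kinase. CAB39L rose from 4.38 ± 0.662 to 7.27 ± 0.383 CPM (0.72 ± 0.11, edgeR adjusted p = 7.59e-06), and PHF11, just downstream of SETDB2, fell by 0.65 ± 0.10 on the log2 scale (edgeR adjusted p = 6.63e-06), while SETDB2 between them was not called. ZBTB12, a zinc finger gene 1920 bases upstream of EHMT2 on the same strand, rose from 5.08 ± 0.238 to 11.8 ± 0.629 CPM (edgeR adjusted p = 2.66e-10). NEU1, a sialidase gene on the other side of EHMT2, rose by 0.21 ± 0.06 (edgeR adjusted p = 0.00493). SNX11, a sorting nexin gene that starts 1836 bases from CBX1, fell by 0.16 ± 0.06 on the log2 scale (edgeR adjusted p = 0.0289), and the non-coding AC069544.1, 134 bases from the start of SUV39H2, rose from 0.758 ± 0.119 to 1.15 ± 0.0679 CPM (edgeR adjusted p = 0.0156). Differences between the genes of a pair were not tested.

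Genes of the surrounding pathway were taken from lists, which were described by counts and set beside the 63.5% of all genes that were called and the median of 0.01 over all genes. Of 16 genes for partners of the EHMT1, EHMT2 and WIZ complex and of the E2F6 complex that contains it, 3 rose and 11 fell, with a median log2 fold change of -0.27. Their summed level was 754 to 790 CPM in the knockout and 947 to 961 CPM in the control. ZNF518A, a zinc finger gene whose product binds G9a, stood at 29.8, 31.1 and 31.1 CPM in the knockout and 67, 65.2 and 64.1 CPM in the control, 2.13-fold lower (edgeR adjusted p = 9.06e-13). YAF2, which encodes a polycomb-associated adaptor, fell 1.91-fold from 34.5 ± 1.37 to 18 ± 3.6 CPM (edgeR adjusted p = 9.42e-08). L3MBTL2 and E2F6, which encode a chromatin reader and a repressor of the same complex, rose 1.36-fold and 1.24-fold (edgeR adjusted p = 1.98e-06 and 1.87e-04). Both falling genes lie among falling neighbours, with medians of -0.62 for ZNF518A and -0.29 for YAF2. For L3MBTL2 and E2F6 the neighbours had medians of 0.28 and 0.02. The median of -0.27 over the list was taken without removing the neighbourhood medians.

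Of 20 genes for HP1 partners and other readers or writers that act with HP1, 9 rose and 6 fell, with a median of 0.09. LRIF1, which encodes an HP1-binding protein of the inactive X chromosome, stood at 44.8, 54.5 and 48.3 CPM in the knockout and 26.6, 29.1 and 27.8 CPM in the control, 1.77-fold higher (edgeR adjusted p = 2.53e-09). KMT5C, the H4K20 methyltransferase gene whose product HP1 recruits, rose 1.72-fold from 6.01 ± 0.555 to 10.3 ± 0.628 CPM (edgeR adjusted p = 3.36e-07), with neighbours at a median of 0.73. SP100, which encodes a nuclear body protein that binds HP1, stood at 9.97, 10.5 and 10.7 CPM in the knockout and 28.8, 29.6 and 31.8 CPM in the control, 2.9-fold lower (edgeR adjusted p = 2.02e-13). LBR, the lamin B receptor gene, whose product tethers HP1 to the nuclear envelope, fell 1.61-fold from 246 ± 17.6 to 152 ± 11.3 CPM (edgeR adjusted p = 9.85e-09). The neighbours of SP100 and LBR had medians of 0.28 and 0.00.

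The genes that oppose the members are those of H3K9 demethylation, of which 11 of 13 listed had a row. Of these, 2 rose and 5 fell, with a median of -0.10. KDM4B, a trimethyl-H3K9 demethylase gene, stood at 18.8, 18.3 and 17.4 CPM in the knockout and 28.3, 28.2 and 27.1 CPM in the control, 1.53-fold lower (edgeR adjusted p = 3.69e-08), although its neighbours had a median of 0.21. JMJD1C, a relative of the dimethyl-H3K9 demethylases, fell 1.79-fold from 139 ± 4.48 to 77.5 ± 3.6 CPM (edgeR adjusted p = 4.66e-11), among neighbours with a median of -0.59. KDM4A and KDM3B rose by 0.18 ± 0.05 and 0.16 ± 0.06 on the log2 scale (edgeR adjusted p = 0.00553 and 0.019).

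For comparison, of 7 genes for SETDB1 partners and the HUSH complex 5 rose and 1 fell, with a median of 0.28 and a summed level of 1108 to 1135 CPM in the knockout against 800 to 806 CPM in the control. TRIM28, which encodes the co-repressor that recruits both SETDB1 and HP1, rose 1.76-fold to 577 ± 17.5 CPM (edgeR adjusted p = 6.21e-11), with neighbours at a median of 0.66, and PPHLN1, a HUSH subunit gene, fell 1.56-fold (edgeR adjusted p = 1.62e-09). ATF7IP, for the SETDB1 cofactor, was 220.3 to 234 CPM in the knockout and 120 to 121 CPM in the control. It rose by 0.91 ± 0.05 on the log2 scale (edgeR adjusted p = 7.09e-12). The neighbours of PPHLN1 and ATF7IP had medians of -0.29 and 0.10.

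Several of the 9 genes are more expressed in dividing cells, so 24 proliferation genes were listed as well. Of these 12 rose and 6 fell, with a median of 0.12, and their summed level was 6064 to 6125 CPM in the knockout and 5971 to 6241 CPM in the control, so that the groups overlapped. AURKB and MCM2 rose 1.62-fold and 1.37-fold (edgeR adjusted p = 3.36e-10 and 2.95e-07), and MKI67 and CDK1 fell 1.59-fold and 1.54-fold (edgeR adjusted p = 4.46e-09 and 7.20e-08). Their neighbours had medians of 0.56 for AURKB, 0.04 for MCM2, -0.45 for MKI67 and -0.55 for CDK1. In bulk libraries fewer expressing cells and less RNA per cell cannot be told apart.

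**Figure D5:**
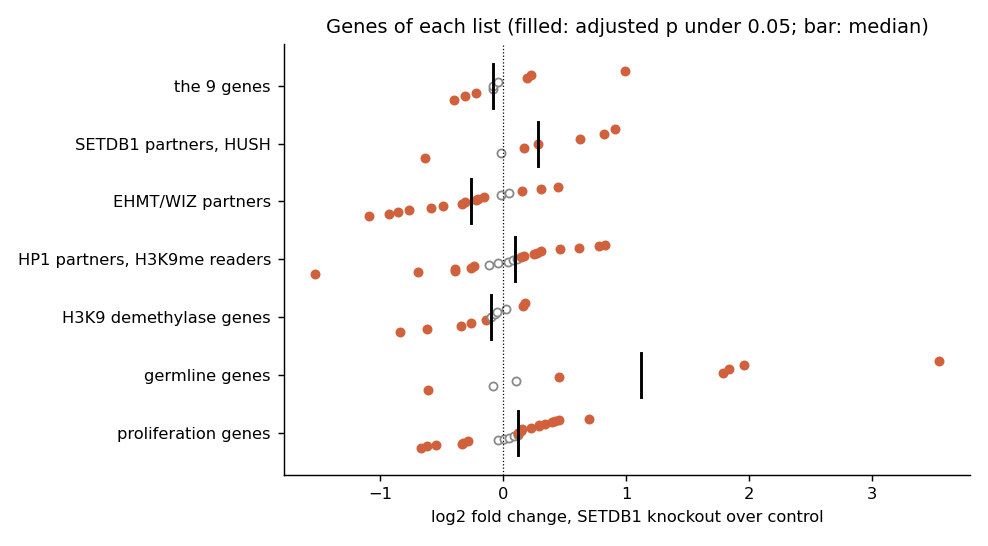
Log2 fold change, SETDB1 knockout over control, of each tested gene of the 9 members and of the lists around them. Each circle is a gene, filled where the edgeR adjusted p is under 0.05, and the black bar is the median of the list. EHMT2 at 0.99 is the member farthest from 0, and the bar of the EHMT and WIZ partners lies at -0.27.

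The genes whose pattern over the 6 libraries was most like that of EHMT2, by the distance between log2 CPM values centred on each gene's mean, were C8orf82 (distance 0.05), TCTA (0.08) and RPS21 (0.09). They rose by 0.98, 0.99 and 0.94 on the log2 scale. For CBX3 they were VEZF1, CPSF2 and SNX3, each at a distance of 0.04 to 0.05, with log2 fold changes of -0.40, -0.40 and -0.43. The names depend on the scale: with 0.5 CPM added before the log, the ranking as first run, they were C8orf82, BMP5 and TMEM238 for EHMT2 and CDC40, CPSF2 and VEZF1 for CBX3. BMP5 averaged 0 CPM in the control and 0.485 CPM in the knockout and TMEM238 0.166 and 0.776 CPM, and the addition was dropped after these 2 genes were seen. Genes with 0 in any library cannot enter without it. Within a distance of 0.2 lay 89 genes for EHMT2 and 662 for CBX3, so these patterns are shared by many genes, and the likeness rests mostly on the difference between the groups.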

How the data were processed

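The 6 H1299 libraries were analysed. Gene counts were used as the authors deposited them, unnormalised, in 1 table. GRCh38.p7, TopHat2, HTSeq and FastQC are named in the submitters' processing notes; the sources used here give no settings. Every row had a library with at least 11 counts. Identifiers were matched without version to GENCODE 29, which named 18593 of 18677. The counts were fitted in R 4.3.3 with edgeR 4.0.16 (filterByExpr, 17675 genes kept, TMM, robust glmQLFit and glmQLFTest, SETDB1 knockout against control), with Benjamini-Hochberg adjustment over all genes tested. The SE of a log2 fold change was its size over the root of the F statistic. RPKM used merged exons. Replicates differed by more than counting error (chi-square per degree of freedom 2.32 to 10.3), so none was taken as a copy. Alternatives were other scalings, filters, thresholds and fits (DESeq2 1.42.0, limma 3.58.1 voom), a replicate block, each library left out, pseudogene rows added to CBX3, and the neighbourhood median (25 expressed genes to either side) taken out. The steps were tested on simulated counts. The members, lists and rules were chosen with earlier results of these data known. Named were the members, their neighbours, the 3 genes most like the largest rise and fall, and up to 2 rising and 2 falling called genes per list with at least 1 CPM in the higher group. The likeness ranking was first run with a pseudocount of 0.5 CPM, which was dropped after its genes were seen; both versions are reported.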

Additional observations from a re-analysis of the deposited data

How the results depend on the processing

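Of the 9 genes, EHMT2 kept its direction and call under all 18 alternatives, with log2 fold changes from 0.69 to 1.03. SUV39H1 and EHMT1 lost theirs only against a fold of 1.5, where -0.22 for SUV39H1, -0.31 for EHMT1, 0.19 for WIZ, -0.40 for CBX3, 0.23 for CBX5 and -0.17 for SETDB1 were no longer called. That test (edgeR's glmTreat) left 1 member higher and 0 lower, 0 lower at an unadjusted p under 0.05, where DESeq2 and voom against no fold gave 3 lower, and 1556 higher and 1496 lower among all genes; it asks for larger changes by construction. With the neighbourhood median taken out, WIZ (0.0596), CBX3 (-0.0078) and CBX5 (0.0545) lost their calls and 1 member was higher; the cause was not tested. SETDB1 also lost its call with library size alone (-0.13), at a threshold of 0.01 on the adjusted p (-0.17), and without knockout replicate 2 (log2 fold changes of -0.21 to -0.13 over libraries left out). Leaving out each library kept 3 members higher and 3 lower. Adding pseudogene rows left CBX3 at -0.41. With the replicate number as a block EHMT2 had 0.99 and CBX3 -0.40, and no call of a member changed. Correlations of same-numbered libraries were 0.393, -0.153 and 0.199, and knockout replicate 2 correlated best with control replicate 3 (0.371). They were taken on deviations from means of 3 libraries, which constrain each other. Such values cannot decide whether the numbers pair the libraries. The block gave 5864 higher and 5839 lower genes, against 5635 and 5584. SETDB2, the least abundant member, had 330 to 432 counts per library, so small changes of it are the hardest to detect. The genes nearest in pattern to EHMT2 and CBX3 changed in part with a pseudocount of 0.5 CPM, an alternative chosen after seeing the data (105 and 698 genes within the distance limit, against 89 and 662).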

Other observations

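Germline genes that the E2F6 and G9a complex holds silent in other cell systems were looked at as a further group. Of 18 listed, 8 had a row, and the others were not analysed here. A gene nearly silent in the control enters the table only if some library reached the deposited minimum, so counts over these 8 (5 higher, 1 lower and 2 not called) do not describe the whole list. Among all genes tested 63.5% were called, 31.9% higher and 31.6% lower, against 75% of these 8. STAG3, a meiotic cohesin gene, went from 72.7 ± 2.82 to 259 ± 16.5 CPM (SD, n = 3; log2 fold change 1.83 ± 0.06, edgeR adjusted p = 1.48e-15). SMC1B, its cohesin partner, went from 1.36 ± 0.112 to 4.72 ± 0.512 CPM (edgeR adjusted p = 1.15e-09), and SYCE2, of the synaptonemal complex, from 0.843 ± 0.208 to 3.32 ± 0.346 CPM (edgeR adjusted p = 8.24e-09). MOV10L1, a piRNA helicase gene, went from 0.0949 ± 0.0385 to 1.12 ± 0.288 CPM (edgeR adjusted p = 8.63e-08). HORMAD1, already at 32.5 ± 1.63 CPM in the control, was at 35 ± 1.23 CPM in the knockout and was not called (edgeR adjusted p = 0.128), and STK31 fell by 0.61 ± 0.25 on the log2 scale (edgeR adjusted p = 0.0362). TDRKH was not called either (edgeR adjusted p = 0.235), and ZCWPW1 rose by 0.46 ± 0.09 on the log2 scale (edgeR adjusted p = 2.01e-04). MOV10L1 and SYCE2 were named by the rule for lists, and the other 6 after their values were seen.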
